A study of Mus musculus with 9 samples.

Results

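The collagen genes are the genes of the count table whose symbol is Col, a number, the letter a and a number, each of which encodes 1 collagen chain. There were 44 of them among 18138 genes, and 41 had enough counts to be tested. They were measured by RNA sequencing of mouse brain tissue in 9 libraries: 3 of control animals, 3 after middle cerebral artery occlusion (MCAO, surgery that blocks a brain artery and models ischaemic stroke), and 3 of MCAO animals treated with hypidone hydrochloride, a compound studied as an antidepressant that acts on serotonin transport and receptors, at 5 mg/kg continuously over 7 days. No genotype or strain is given in the labels, and nothing used here states the region or side of the brain, any sham surgery or vehicle, the animals' age or the time after surgery. Libraries are named by group and by the number in their title. Nothing in the labels ties the 3 libraries of a group to separate animals, and the p-values below then cover only the spread between these libraries, which may be technical.

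Collagens are the main structural proteins of the extracellular matrix, secreted as helices of intertwined chains. In brain tissue most collagen lies in the basement membranes of blood vessels and of the brain's surface, in the meninges and around larger vessels, while the tissue between cells holds little fibrillar collagen. The chains assemble in set combinations, so that Col4a1 and Col4a2 encode the chains of the common basement membrane collagen IV, Col1a1 and Col1a2 those of the fibrillar collagen I, and Col6a1, Col6a2 and Col6a3 those of the beaded filaments of collagen VI. A few members are made by neurons, among them Col25a1 and Col19a1.

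The libraries held between 32075682 (control 4) and 37325027 (MCAO 4) gene counts. Replicates varied most within MCAO, where the biological coefficient of variation was 41.4%, against 29.4% within control and 14.5% within the hypidone group. The 8 neuron markers checked were detected in every library, with a summed level of 1796 to 3809 FPKM (the authors' counts scaled by gene length and library total), which matches the labelled tissue. MCAO 5 stood apart for the collagen genes. It was the highest of the 9 libraries for 26 of the 44 members (59.1%), against 25.6% of all 14756 tested genes, and the highest of the MCAO libraries for 33 (75.0%), against 43.0%. Hypidone 7 was the highest of its group for 24 members (54.5%), against 28.5% of all tested genes.

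Collagen transcripts were scarce in control brain, and the levels of the members spanned a wide range. The order of mean control levels in FPKM, which allows genes of different length to be compared, was led by Col25a1 at 5.15 ± 2.36 (SD, n = 3), a transmembrane collagen of neurons. Col4a1 followed at 3.47 ± 0.925, Col6a1 at 3.46 ± 1.28, Col4a2 at 3.13 ± 0.814 and Col1a2 at 2.68 ± 0.613, and neighbours in this order differed by less than the larger of their SDs. The 13 members ranked highest had a mean above 1 FPKM, down to Col11a2 at 1.08. At the low end, Col10a1, a collagen of growth plate cartilage, stood at 0.00897 FPKM, from 3 counts over the 3 control libraries. The 3 members not tested were Col10a1, Col17a1 and Col6a5.

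With MCAO, 9 of the 41 tested collagen genes rose (22.0%) and 1 fell (2.44%), at an adjusted p under 0.05 in edgeR's quasi-likelihood test. Of all 14756 tested genes, 10.6% rose, 9.81% fell and 20.4% changed in either direction, so the share of collagen genes changed, 24.4%, lay near the background, while higher calls outnumbered lower ones 9 to 1. Basement membrane chains (Col4a1, Col4a2, Col4a6), collagen V chains (Col5a1, Col5a3), Col6a1, Col7a1, Col18a1 and Col20a1 made up the 9, and Col25a1 was the 1 that fell. Of these, Col7a1 passed the count filter only through the MCAO libraries, where it was high. The log2 fold change was above 0 for 31 of the 41 members, against 50.8% of all tested genes, and its median was 1.20, against 0.01 over all tested genes. At an unadjusted p under 0.05 there were 18 members (43.9%), against 36.8% of all tested genes. Leaving out 1 library moved the count of collagen genes called from 10 to between 1 (without control 4) and 18 (without MCAO 4), and it was 5 without MCAO 5 and hypidone 7. Calls over all genes moved as well, from 3015 to 1243 without control 4 and 4275 without MCAO 4. They were 2431 without MCAO 5 and hypidone 7. The MCAO libraries lay wholly above the controls for 8 members, against 16.5% of all tested genes, and wholly below them for 3, against 17%. The 8 were Col4a1, Col4a2, Col4a5, Col5a1, Col5a3, Col6a1, Col6a2 and Col20a1, and the 3 were Col6a6, Col22a1 and Col25a1.

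**Figure D1:**
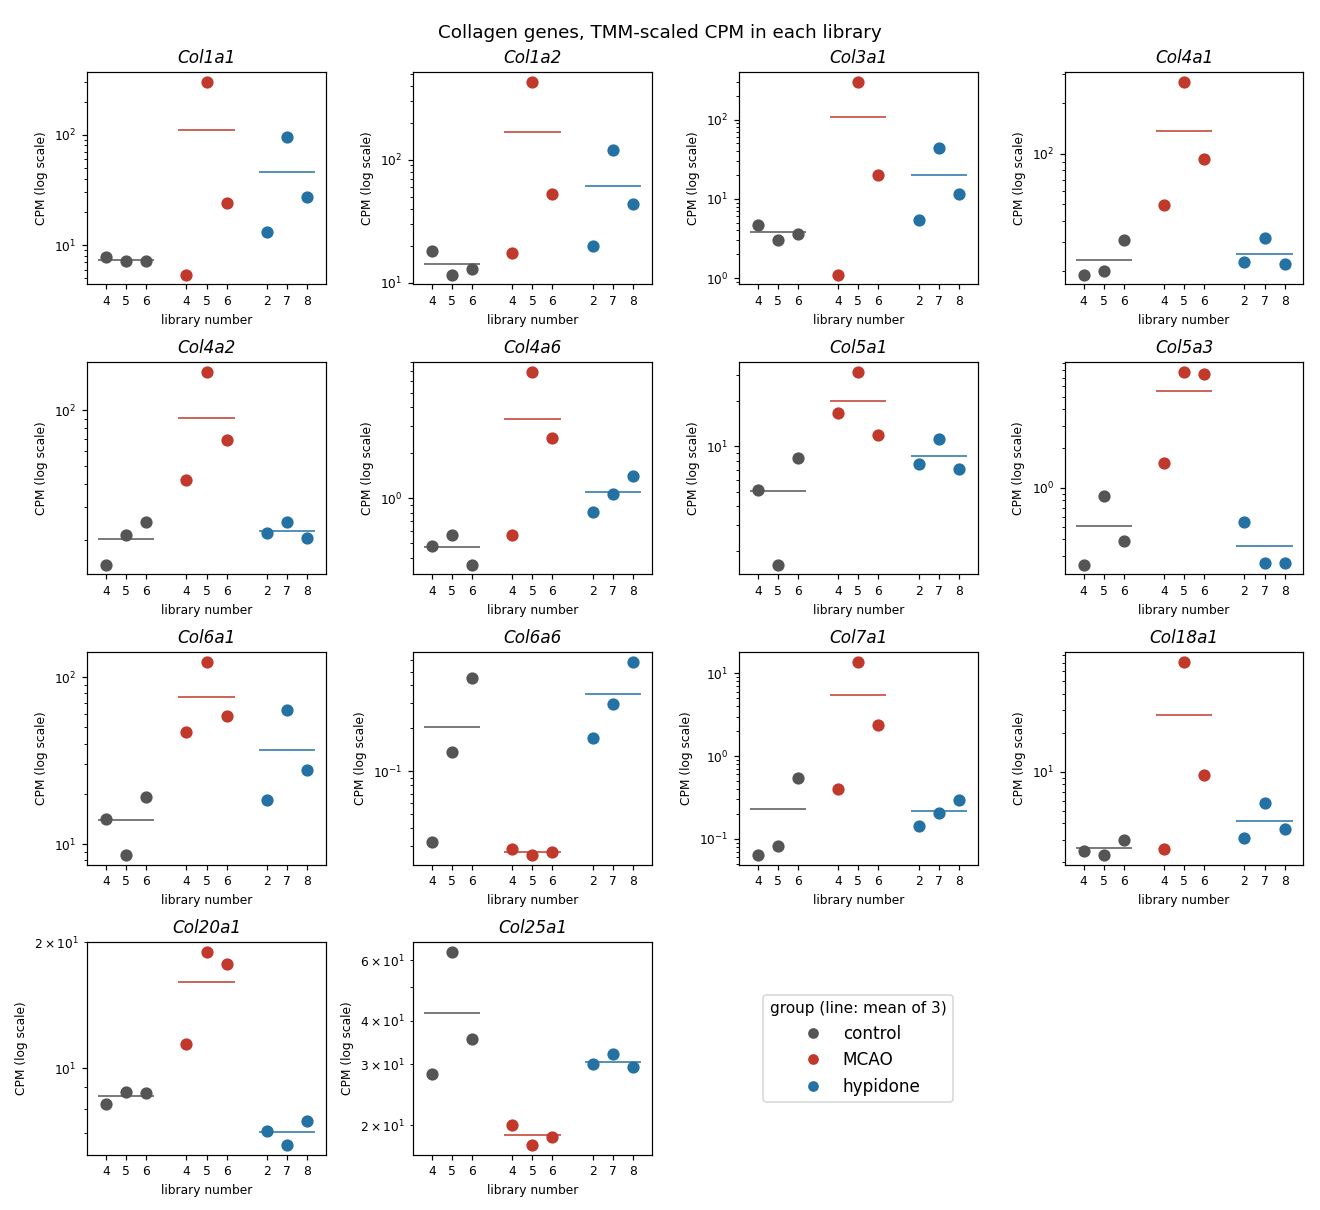
TMM-scaled CPM (counts relative to the scaled library total, log axis) of the 14 collagen genes described in full, 1 point per library and 1 line per group mean of 3 libraries. MCAO 5 is the highest point for most genes, the hypidone libraries lie near the controls for Col4a1 and Col4a2, and Col25a1 is lowest in MCAO.

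The basement membrane chains Col4a1 and Col4a2 had all MCAO libraries above all controls. Col4a1 stood at 19.1, 20.1 and 30.6 CPM (counts relative to the TMM-scaled library total) in control 4, 5 and 6, at 49.9, 269 and 92.9 CPM in MCAO 4, 5 and 6, and at 22.8, 31.6 and 22.2 CPM in hypidone 2, 7 and 8. The MCAO values did not overlap either other group, and the hypidone values lay close to the controls. With MCAO its log2 fold change was 2.56 ± 0.54 (SE, adjusted p = 0.0145), and 1.64 (adjusted p = 0.00820) without MCAO 5. The call was lost without control 4 (2.43, adjusted p = 0.0583). A fit of only the control and MCAO libraries also lost it. That fit called 682 of all genes, and of the collagen calls with MCAO it kept only Col6a1. In bulk tissue, more cells of a type and more RNA per cell cannot be told apart, for this gene and for all that follow.

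Col4a2, whose product pairs with that of Col4a1, followed the same order of groups. It stood at 14.8, 21.3 and 25.2 CPM in control 4, 5 and 6, at 42.2, 161 and 69.1 CPM in MCAO 4, 5 and 6, and at 21.8, 25.2 and 20.4 CPM in hypidone 2, 7 and 8. Again the MCAO libraries lay above all others, with MCAO 4 the lowest of them. Its log2 fold change with MCAO was 2.15 ± 0.44 (adjusted p = 0.0125), 1.47 (adjusted p = 0.00717) without MCAO 5, and 1.96 (adjusted p = 0.0515) without control 4, where the call was lost. In GENCODE M21 on mm10, the source of all gene positions here, the genes lie head to head, Col4a1 at chr8:11198423-11312826 on the minus strand and Col4a2 at chr8:11312805-11449287 on the plus strand, and their starts overlap by 22 bases. Each gene's upstream window thus lies in the other's first exon, and no window is shown for them. The ratio of Col4a1 to Col4a2 in FPKM ranged from 0.923 (control 5) to 1.63 (MCAO 5) over the 9 libraries.

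The other basement membrane chains were less abundant. Col4a6 (chrX:141165403-141474076, minus strand), a chain of specialised basement membranes, stood at 0.479, 0.570 and 0.361 CPM in control 4, 5 and 6, at 0.569, 6.90 and 2.50 CPM in MCAO 4, 5 and 6, and at 0.806, 1.06 and 1.41 CPM in hypidone 2, 7 and 8. MCAO 4 lay within the control range. With MCAO its log2 fold change was 2.81 ± 0.78 (adjusted p = 0.0345). It was lost on leaving out any 1 of 8 libraries, MCAO 4 being the exception, with an adjusted p of 0.0544 to 0.114, and without MCAO 5 it was 1.71 (adjusted p = 0.0798). Its neighbour Col4a5, which starts 1309 bp away on the X chromosome in the opposite direction, had a log2 fold change of 2.37 (adjusted p = 0.0576), which passed without MCAO 4 (2.82, adjusted p = 0.0153). Col4a5 was named after its value was seen, as were Col5a2 and Col6a2, because their adjusted p lay just above the threshold. Col4a3 and Col4a4, chains best known from the kidney, had log2 fold changes of 1.29 (adjusted p = 0.306) and 1.23 (adjusted p = 0.186).

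Among the fibrillar chains, the genes of collagens I and III differed widely between the MCAO libraries. Col1a1 (chr11:94936224-94953042, plus strand), which encodes the major chain of collagen I, stood at 7.83, 7.14 and 7.18 CPM in control 4, 5 and 6, at 5.40, 304 and 24.3 CPM in MCAO 4, 5 and 6, and at 13.3, 96.4 and 27.4 CPM in hypidone 2, 7 and 8. MCAO 4 lay below the controls and MCAO 5 was 56.2 times MCAO 4. Its change with MCAO, 3.91 ± 1.33 on the log2 scale, did not pass the test (adjusted p = 0.0648). Without MCAO 5 it was 1.03, and without MCAO 4 it was 4.47 and passed (adjusted p = 0.0172).

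Col1a2 (chr6:4504814-4541544, plus strand), the partner chain of Col1a1, stood at 18.1, 11.6 and 12.9 CPM in control 4, 5 and 6, at 17.3, 435 and 52.8 CPM in MCAO 4, 5 and 6, and at 20.0, 120 and 43.8 CPM in hypidone 2, 7 and 8. MCAO 4 lay within the control range. Its log2 fold change with MCAO was 3.57 ± 1.12 (adjusted p = 0.0514), 1.32 without MCAO 5, and 4.10 (adjusted p = 0.0141) without MCAO 4. The ratio of Col1a1 to Col1a2 in FPKM ranged from 0.275 (MCAO 4) to 0.710 (hypidone 7).

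Col3a1 (chr1:45311538-45349706, plus strand) encodes the chain of collagen III, which accompanies collagen I in vessel walls and scars. Its 250 bases upstream of the RefSeq start (GRCm38.p6, chr1:45311288-45311537, plus strand) are shown because no other tested member ranged more widely between the MCAO libraries. TATAAA, the only one of the searched motifs found there, is in capitals and begins 117 bases before the start, and the window has a GC content of 35.2%, against a median of 52.4% over 32851 promoters.
Col3a1: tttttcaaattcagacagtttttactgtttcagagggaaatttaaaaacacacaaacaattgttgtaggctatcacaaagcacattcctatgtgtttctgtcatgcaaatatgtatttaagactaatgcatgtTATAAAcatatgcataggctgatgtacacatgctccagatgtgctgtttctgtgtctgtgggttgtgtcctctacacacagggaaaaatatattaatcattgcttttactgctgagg
Col3a1 stood at 4.70, 3.01 and 3.64 CPM in control 4, 5 and 6, at 1.11, 302 and 20.2 CPM in MCAO 4, 5 and 6, and at 5.36, 43.8 and 11.6 CPM in hypidone 2, 7 and 8. MCAO 4 was the lowest library and MCAO 5, at 272 times its level, the highest. MCAO against control gave a log2 fold change of 4.83 ± 1.63 (adjusted p = 0.0634), 1.51 without MCAO 5, and 5.41 (adjusted p = 0.0124) without MCAO 4.

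Collagen V chains start and limit the growth of collagen I fibrils. Col5a3 (chr9:20770050-20815067, minus strand), the scarcest of them in control at 0.0823 FPKM, rose in every MCAO library. Its 250 upstream bases (GRCm38.p6, chr9:20815068-20815317, minus strand) are shown because it was the fibrillar chain that passed the test in both comparisons. Capitals mark CCAAT, 122 bases before the start, and the GC box GGGCGG read on the opposite strand as CCGCCC, 63 and 41 bases before it, and the GC content is 62.8%.
Col5a3: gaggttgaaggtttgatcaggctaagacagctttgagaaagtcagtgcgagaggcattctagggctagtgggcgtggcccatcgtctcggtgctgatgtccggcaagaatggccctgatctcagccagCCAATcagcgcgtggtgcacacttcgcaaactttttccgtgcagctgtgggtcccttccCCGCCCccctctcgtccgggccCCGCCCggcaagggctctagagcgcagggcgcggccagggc
Col5a3 stood at 0.256, 0.869 and 0.391 CPM in control 4, 5 and 6, at 1.54, 7.79 and 7.41 CPM in MCAO 4, 5 and 6, and at 0.547, 0.266 and 0.264 CPM in hypidone 2, 7 and 8. MCAO 5 and MCAO 6 were alike, and no MCAO value overlapped another group. Col5a3 rose by 3.45 ± 0.72 on the log2 scale with MCAO (adjusted p = 0.0137), and by 3.14 (adjusted p = 0.0205) without MCAO 5. Leaving out control 4 (3.13, adjusted p = 0.0538) or control 6 (3.29, adjusted p = 0.0598) ended the call.

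Col5a1 (chr2:27886425-28039514, plus strand), the chain common to most collagen V, stood at 5.11, 1.63 and 8.32 CPM in control 4, 5 and 6, at 16.8, 31.5 and 11.9 CPM in MCAO 4, 5 and 6, and at 7.63, 11.2 and 7.09 CPM in hypidone 2, 7 and 8. Here MCAO 6, not MCAO 4, was the lowest of its group, and MCAO lay above all controls. Col5a1 rose by 2.00 ± 0.56 on the log2 scale with MCAO (adjusted p = 0.0353), and stood at 1.54 (adjusted p = 0.0707) without MCAO 5. Leaving out control 4 or any of hypidone 2, 7 and 8 also ended the call, with an adjusted p of 0.0552 to 0.101. Exons of Col5a1 overlap those of 2810430I11Rik and Gm13372 on the opposite strand, and with no strand setting known for the counting, reads in the shared stretches cannot be told apart. Col5a2 had a log2 fold change of 3.50 (adjusted p = 0.0616), which passed without MCAO 4 (4.05, adjusted p = 0.0127). Of the 11 fibrillar chains, 2 rose, against 10.6% of all tested genes. The cartilage chain Col11a2 had a log2 fold change of -0.10 (adjusted p = 0.797) with values of 6.28 to 10.1 CPM in all 9 libraries.

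Among the beaded filament chains, Col6a1 (chr10:76708792-76726168, minus strand) rose. It stood at 14.1, 8.64 and 19.2 CPM in control 4, 5 and 6, at 46.8, 123 and 58.5 CPM in MCAO 4, 5 and 6, and at 18.3, 63.2 and 27.9 CPM in hypidone 2, 7 and 8. MCAO lay above all controls, while hypidone 7 lay within the MCAO range. Its rise on the log2 scale was 2.45 ± 0.54 (adjusted p = 0.0165) and 1.93 (adjusted p = 0.0261) without MCAO 5. Leaving out control 4 ended the call (2.45, adjusted p = 0.0592).

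Col6a2, whose chain assembles with that of Col6a1, stood at 12.6, 7.01 and 13.3 CPM in control 4, 5 and 6, at 25.6, 86.6 and 25.9 CPM in MCAO 4, 5 and 6, and at 15.5, 68.0 and 25.2 CPM in hypidone 2, 7 and 8. Its log2 fold change with MCAO was 2.07 and did not pass the test (adjusted p = 0.0506). It passed without MCAO 4 (2.35, adjusted p = 0.0332) or hypidone 7 (2.06, adjusted p = 0.0404). The ratio of Col6a1 to Col6a2 in FPKM was 2.76, 2.15 and 3.41 in MCAO 4, 5 and 6, against 1.70 to 2.18 in control and 1.41 to 1.78 in the hypidone group, so the ranges of MCAO and control overlapped. Of the 6 beaded filament chains 5 were tested and 1 rose, against 10.6% of all tested genes.

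Col18a1, Col7a1 and Col20a1 belong to other classes. Col18a1 (chr10:77052178-77166548, minus strand) encodes a basement membrane chain whose end fragment is endostatin. It stood at 2.46, 2.28 and 2.97 CPM in control 4, 5 and 6, at 2.53, 70.9 and 9.53 CPM in MCAO 4, 5 and 6, and at 3.08, 5.75 and 3.60 CPM in hypidone 2, 7 and 8. MCAO 4 lay within the control range, and MCAO 5 was 28.0 times MCAO 4. MCAO against control gave 3.43 ± 1.0 on the log2 scale (adjusted p = 0.0412) and 1.25 (adjusted p = 0.110) without MCAO 5. Leaving out any library but MCAO 4 ended the call, with an adjusted p of 0.0551 to 0.118.

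Col7a1 (chr9:108953586-108984875, plus strand) encodes the chain of anchoring fibrils of skin. It stood at 0.0639, 0.0815 and 0.541 CPM in control 4, 5 and 6, at 0.398, 13.8 and 2.39 CPM in MCAO 4, 5 and 6, and at 0.144, 0.207 and 0.293 CPM in hypidone 2, 7 and 8. MCAO 4 lay below control 6, so the groups overlapped. Its counts were 2, 3 and 18 in control, 14, 528 and 87 in MCAO, and 5, 7 and 10 in the hypidone group. Col7a1 thus passed the count filter only through the MCAO libraries, so that it was tested at all depended on its high MCAO level. A log2 fold change of 4.57 ± 1.28 with MCAO passed the test (adjusted p = 0.0356), and without MCAO 5 it was 2.61 (adjusted p = 0.0900). As for Col18a1, the call held only without MCAO 4 among the 9 single-library omissions, and the adjusted p of the other 8 was 0.0533 to 0.111.

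Col20a1 (chr2:180986535-181018363, plus strand), a fibril-associated chain, changed by less but varied little within groups. It stood at 8.21, 8.77 and 8.71 CPM in control 4, 5 and 6, at 11.4, 19.0 and 17.8 CPM in MCAO 4, 5 and 6, and at 7.08, 6.55 and 7.50 CPM in hypidone 2, 7 and 8. The 3 groups did not overlap, with hypidone lowest and MCAO highest. The rise on the log2 scale was 0.91 ± 0.21 (adjusted p = 0.0188) and 0.79 (adjusted p = 0.0264) without MCAO 5. The call was lost without control 4 (adjusted p = 0.0666), control 6 (adjusted p = 0.0653) or MCAO 6 (adjusted p = 0.0635).

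Col25a1 was the most abundant member in control and the 1 that fell. Its product is a membrane-bound collagen of neurons whose shed part was first found in amyloid plaques. The 250 bases upstream of its RefSeq start (GRCm38.p6, chr3:130180595-130180844, plus strand), which lies inside the longer GENCODE M21 gene at chr3:130131501-130599877, are shown because its direction was opposite to that of the other called members. Capitals mark CCAAT, 191 bases before the start, and GGGCGG on the minus and plus strands, 114 and 40 bases before it, and the GC content is 60.4%.
Col25a1: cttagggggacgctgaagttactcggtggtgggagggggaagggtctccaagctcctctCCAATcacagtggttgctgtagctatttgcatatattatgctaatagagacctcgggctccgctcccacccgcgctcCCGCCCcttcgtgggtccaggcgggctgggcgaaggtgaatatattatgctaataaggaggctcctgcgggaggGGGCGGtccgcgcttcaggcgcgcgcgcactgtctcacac
Col25a1 stood at 28.1, 63.3 and 35.4 CPM in control 4, 5 and 6, at 20.0, 17.5 and 18.5 CPM in MCAO 4, 5 and 6, and at 30.0, 32.1 and 29.4 CPM in hypidone 2, 7 and 8. The MCAO libraries were alike and below all others, and control 5 was the highest. Against control the log2 fold change was -1.18 ± 0.26 (adjusted p = 0.0171), and -0.77 (adjusted p = 0.0114) without control 5. The call was lost without MCAO 6 (-1.17, adjusted p = 0.0619). Control 5 also held 182 FPKM summed over 9 hippocampal neuron markers, against 26.8 to 63.7 in the other libraries, and 127 FPKM over 7 choroid plexus markers, against 0.581 to 7.67. Of the hippocampal markers Spink8 was at 0 in some library, as were Folr1, Kcne2 and Otx2 of the choroid plexus list. The 8 neuron markers summed to 3809, 2387 and 3772 FPKM in control 4, 5 and 6, to 3069, 1796 and 2441 in MCAO 4, 5 and 6, and to 3456, 3360 and 3767 in hypidone 2, 7 and 8. MCAO and control overlapped, the hypidone libraries lay above MCAO, and no marker was at 0 in any library. None of the 8 passed the test with MCAO, 1 (Tubb3) rose in hypidone against MCAO, and their part in the result was not tested.

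Of the 41 tested members, 27 fall outside the rule for named genes. Their log2 fold changes with MCAO ran from -0.86 to 3.50 with a median of 0.94, and their adjusted p from 0.0506 to 0.964. The upper end was Col5a2, and the lower end was Col26a1, at 4.98, 1.30 and 3.22 CPM in control and 1.93, 2.60 and 0.687 CPM in MCAO. The neuronal chain Col19a1 had a log2 fold change of -0.35 (adjusted p = 0.509). Of the untested members, Col10a1 had 0, 2 and 1 counts in control 4, 5 and 6, 0, 299 and 15 counts in MCAO 4, 5 and 6, and 0, 0 and 2 counts in hypidone 2, 7 and 8. Nearly all of its counts thus came from MCAO 5. The ratio of its summed counts in MCAO to control, scaled for library size, was 96.5, with an exact 95% interval of 32.7 to 471 that covers counting error only and not the spread between libraries. Exons of Col10a1 overlap those of Nt5dc1 on the opposite strand, so that reads in the shared stretches cannot be told apart either.

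**Figure D2:**
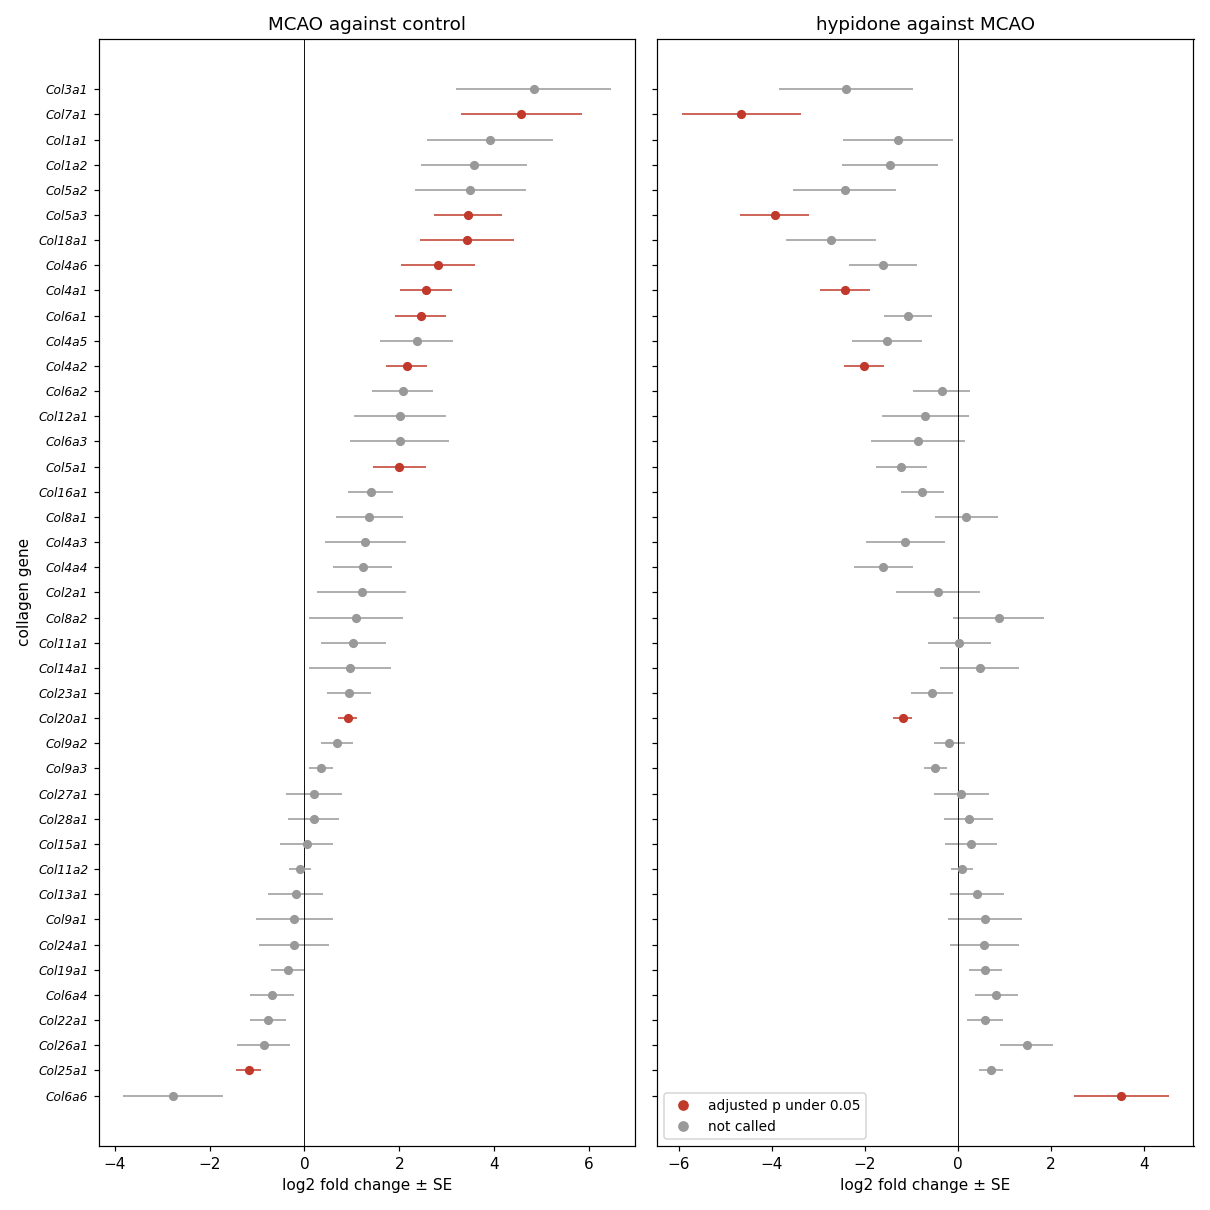
Log2 fold change ± SE of the 41 tested collagen genes, ordered by their value with MCAO, for MCAO against control (left) and hypidone against MCAO (right), with genes at an adjusted p under 0.05 in red. Both comparisons share the MCAO libraries, so opposite signs in the panels are not independent. On the left 31 points lie above 0, and the longest bars belong to Col3a1, Col1a1 and Col7a1.

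In the hypidone group against MCAO, 5 of the 41 collagen genes fell (12.2%) and 1 rose (2.44%). Over all tested genes 8.28% fell, 8.23% rose and 16.5% changed in either direction, so the 14.6% of collagen genes changed lay near the background. Those that fell were Col4a1, Col4a2, Col5a3, Col7a1 and Col20a1, and Col6a6 rose. The median log2 fold change of the members was -0.49, against -0.04 over all tested genes, and 17 of the 41 values were above 0, against 47.2%. At an unadjusted p under 0.05 there were 10 members (24.4%), against 34.9% of all tested genes. Leaving out 1 library moved the count called from 6 to between 0 (without hypidone 7) and 10 (without MCAO 4), and it was 3 without MCAO 5 and hypidone 7. Over all genes, calls moved from 2437 to 596, 584 and 548 without hypidone 2, 7 and 8. They were 3875 without MCAO 4 and 1400 without MCAO 5 and hypidone 7. Hypidone libraries lay wholly below MCAO for 6 members, against 19% of all tested genes, and wholly above for 5, against 20.9%. The first set adds Col5a1 to the 5 that fell, and the other comprises Col6a4, Col6a6, Col19a1, Col25a1 and Col26a1. This comparison and that of MCAO with control use the same MCAO libraries, so the values of a gene in both are not independent.

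Col4a1 and Col4a2 lay close to the controls in the hypidone group. For Col4a1 the log2 fold change against MCAO was -2.43 ± 0.54 (adjusted p = 0.0197), and -1.50 (adjusted p = 0.0122) without MCAO 5. For Col4a2 it was -2.01 ± 0.43 (adjusted p = 0.0177), and -1.33 (adjusted p = 0.0112) without MCAO 5. Both calls were lost when any 1 hypidone library was left out, with an adjusted p of 0.0639 to 0.0854 for Col4a1 and 0.0640 to 0.0785 for Col4a2, while the log2 fold changes stayed between -2.60 and -2.33 and between -2.10 and -1.94. Col4a6 stood at -1.60 (adjusted p = 0.153), and passed without MCAO 4 (-2.10, adjusted p = 0.0191).

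Col5a3 fell by 3.94 ± 0.74 on the log2 scale against MCAO (adjusted p = 0.0117), and by 3.64 (adjusted p = 0.0145) without MCAO 5. Its call was lost without hypidone 7 (-3.77, adjusted p = 0.0586) or hypidone 8 (-3.76, adjusted p = 0.0612). Col7a1 fell by 4.66 ± 1.28 (adjusted p = 0.0394), but any 1 of 6 libraries, namely control 4, MCAO 5, MCAO 6 and each hypidone library, ended the call when left out, with an adjusted p of 0.0525 to 0.131. Without MCAO 5 its log2 fold change was -2.70, and it passed the count filter only through the MCAO libraries. Col20a1 fell by 1.19 ± 0.21 (adjusted p = 0.00979), by 1.07 (adjusted p = 0.00999) without MCAO 5, and lost its call without hypidone 7 (-1.14, adjusted p = 0.0506).

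Col6a6 (chr9:105687809-105828160, minus strand), a collagen VI chain, was near the limit of detection and passed the count filter only through hypidone and control libraries. It had 1 count in each MCAO library and 36 counts over the hypidone libraries, which stood at 0.173, 0.295 and 0.586 CPM, against 0.0319, 0.136 and 0.451 CPM in control 4, 5 and 6. The ratio of summed counts in hypidone to MCAO was 12.8, with an exact 95% interval of 4.06 to 65.2 for counting error alone, and the test gave an adjusted p of 0.0468. The call was lost when any 1 library of either group was left out, with an adjusted p of 0.0721 to 0.156. Exons of Col6a6 overlap those of Gm38314 on the opposite strand.

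Other members did not pass the test against MCAO. Col25a1, below the hypidone range in every MCAO library, had a log2 fold change of 0.71 ± 0.26 (adjusted p = 0.0890), which passed without control 5 (0.71, adjusted p = 0.00974), a library outside both groups that enters through the shared spread. The fibrillar genes Col1a1, Col1a2 and Col3a1 had log2 fold changes of -1.28 ± 1.19 (adjusted p = 0.473), -1.46 ± 1.03 (adjusted p = 0.339) and -2.41 ± 1.44 (adjusted p = 0.265). Without MCAO 5 these were 1.60, 0.78 and 0.91, so the sign of all 3 rested on that library. Col6a1 stood at -1.06 ± 0.51 (adjusted p = 0.175), Col18a1 at -2.74 ± 0.97 (adjusted p = 0.0798) and Col5a1 at -1.22 ± 0.54 (adjusted p = 0.145). Col18a1 passed without MCAO 4 (-3.27, adjusted p = 0.0127).

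Against control, none of the collagen genes changed in the hypidone group (0 of 41), and edgeR called 0 of 14756 genes (0%). At an unadjusted p under 0.05 there were 131 genes (0.888%), among them 2 collagen genes, Col6a1 and Col6a2, and DESeq2 called 1 gene and 0 collagen genes. The log2 fold change was above 0 for 33 of the 41 members, against 48.1% of all tested genes, with a median of 0.49, against -0.01. Hypidone libraries lay wholly above control for 6 members, Col1a1, Col1a2, Col3a1, Col4a6, Col6a2 and Col18a1, against 3.86% of all tested genes, and wholly below for Col20a1, against 2.71%. The log2 fold changes of Col1a1, Col1a2 and Col3a1 were 2.63 ± 1.26, 2.11 ± 1.06 and 2.42 ± 1.49, and without hypidone 7 they were 1.46, 1.17 and 1.17. For the chains that fell against MCAO the values against control were 0.13 ± 0.52 for Col4a1 and 0.14 ± 0.42 for Col4a2. None of these passed the test, which does not show that the groups were alike.

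Summed by class on the per-length FPKM scale, the collagen total was 36.3, 35.2 and 40.4 in control 4, 5 and 6. It was 51.2, 398 and 90.8 in MCAO 4, 5 and 6, and 41.2, 115 and 58.5 in hypidone 2, 7 and 8. Every library of both MCAO-operated groups lay above every control, but these groups overlapped each other. Fibrillar chains made up 18.0% to 22.0% of the total in control, 15%, 55.8% and 27.1% in MCAO 4, 5 and 6, and 23.9%, 45.2% and 31.8% in hypidone 2, 7 and 8. The basement membrane chains behaved differently from the fibrillar ones in hypidone 7, where they summed to 9.31 FPKM beside 7.25 and 7.20 in hypidone 2 and 8, while the fibrillar chains summed to 52.2 beside 9.84 and 18.6. Transmembrane chains were the class whose sum stayed below the highest control, control 5, in each MCAO library. That sum was 4.10, 7.59 and 4.16 FPKM in MCAO 4, 5 and 6, against 5.18, 9.20 and 5.62 in control 4, 5 and 6. MCAO 5 lay above control 4 and control 6, with Col23a1 at 5.07 FPKM and Col25a1 at 2.32.

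**Figure D3:**
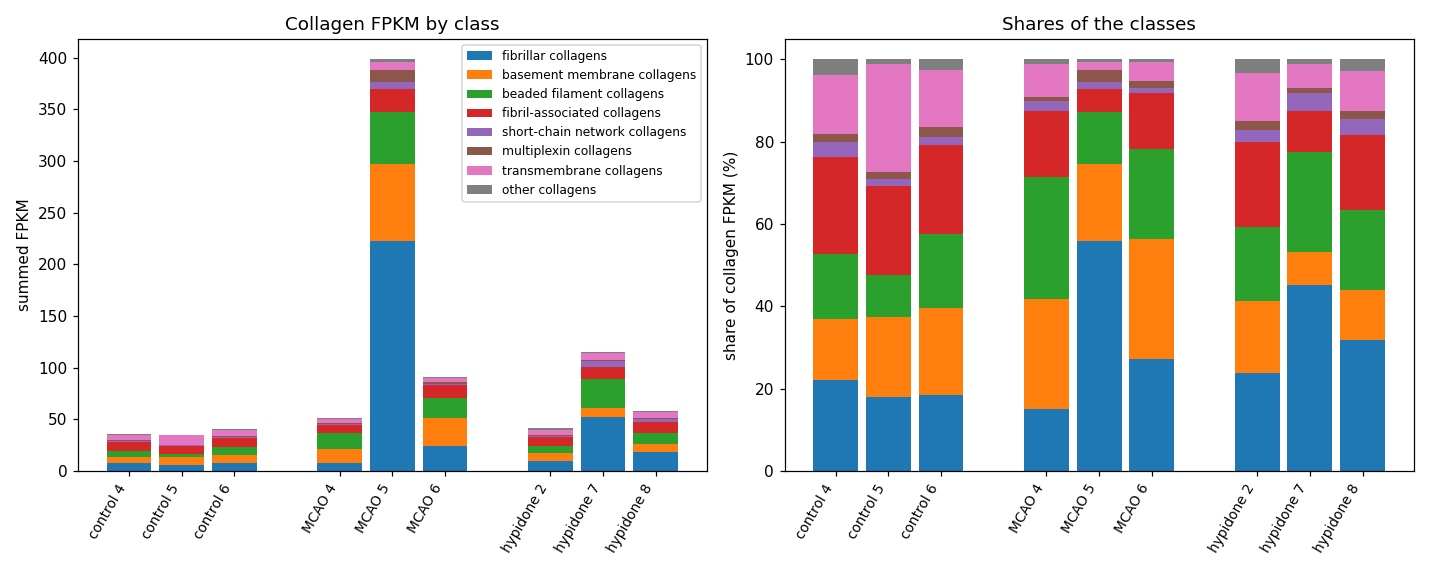
Summed FPKM of the 44 collagen genes in each library, stacked by class (left), and the share of each class in that sum in percent (right). The left panel shows MCAO 5 at 398 FPKM, and the right panel shows fibrillar chains at 55.8% of the sum in MCAO 5 and 45.2% in hypidone 7, against at most 22.0% in control.

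Genes that make, cut and bind collagen were read from lists for each step. Of 19 genes of chain modification and folding, 4 rose with MCAO and 1 fell, against 10.6% and 9.81% of all tested genes. In hypidone against MCAO 3 fell and 1 rose, against 8.28% and 8.23%. P4ha1, the catalytic subunit of the prolyl hydroxylase that stabilises the collagen helix, went the other way from the collagen chains that rose. It stood at 56.8, 65.5 and 53.4 CPM in control 4, 5 and 6, at 10.5, 26.8 and 18.1 CPM in MCAO 4, 5 and 6, and at 55.5, 59.1 and 52.1 CPM in hypidone 2, 7 and 8. MCAO lay far below both other groups, which overlapped. The log2 fold change was -1.66 ± 0.28 with MCAO (adjusted p = 0.00727) and 1.59 ± 0.28 in hypidone against MCAO (adjusted p = 0.0102), and no single library ended either call. P3h3, P3h4 and Ppib, members of the prolyl 3-hydroxylation and folding machinery, rose with MCAO by 1.08 ± 0.25, 0.69 ± 0.17 and 0.61 ± 0.17 on the log2 scale and fell against it by 0.85 ± 0.25, 0.70 ± 0.17 and 0.64 ± 0.17. These 6 calls, with an adjusted p of 0.0188 to 0.0456, were each lost without MCAO 6, where the adjusted p was 0.0575 to 0.143. Each was also lost without other single libraries. The chaperone of collagen folding Serpinh1 had a log2 fold change of 1.33 with MCAO (adjusted p = 0.215).

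Of 12 tested genes of propeptide cleavage and cross-linking, 5 rose with MCAO and 1 fell against it, where 10.6% and 8.28% of all tested genes did. Lox, the enzyme that cross-links collagen fibrils, stood at 0.479, 0.489 and 0.751 CPM in control 4, 5 and 6, at 1.88, 139 and 9.89 CPM in MCAO 4, 5 and 6, and at 0.403, 6.82 and 4.42 CPM in hypidone 2, 7 and 8. Its log2 fold change with MCAO was 6.45 ± 1.66 (adjusted p = 0.0275), and leaving out any 1 control ended the call (adjusted p of 0.0649 to 0.0932). Without MCAO 5 it was 3.37 (adjusted p = 0.0467). Adamts2, which removes the amino propeptide of fibrillar collagens, rose by 2.46 ± 0.51 (adjusted p = 0.0131), with 3.29 to 5.02 CPM in control and 12.5 to 39.8 CPM in MCAO, and lost its call without control 4 (adjusted p = 0.0543) or control 6 (adjusted p = 0.0541). Without MCAO 5 the value for Adamts2 was 1.78 (adjusted p = 0.0142). Its relative Adamts14 rose by 2.54 ± 0.79 (adjusted p = 0.0498) and fell by 4.00 ± 0.87 against MCAO (adjusted p = 0.0184). Bmp1, which removes the carboxyl propeptide, rose by 1.06 ± 0.30 (adjusted p = 0.0356). Of the 9 single-library omissions, 8 ended the call of Adamts14 with MCAO (adjusted p of 0.0674 to 0.152) and 8 that of Bmp1 (0.0506 to 0.0983). The call of Adamts14 against MCAO was lost without MCAO 6 or any hypidone library (0.0530 to 0.0777).

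None of the 9 tested collagen receptors passed in either comparison, with a median log2 fold change of 1.11 with MCAO. The integrin subunit Itgb1 stood at 1.20 (adjusted p = 0.0523). Of 5 tested collagen-degrading proteases 3 rose with MCAO, Mmp9 by 1.26 ± 0.38, Mmp14 by 2.08 ± 0.56 and Ctsk by 1.98 ± 0.55, with an adjusted p of 0.0319 to 0.0471, where 10.6% of all tested genes rose. Without MCAO 5 Mmp14 stood at 1.17 (adjusted p = 0.0528) and Ctsk at 1.38 (adjusted p = 0.0721). Of the single-library omissions 7, 5 and 6 ended these calls, with an adjusted p of 0.0507 to 0.151. Of 16 genes of collagen-associated matrix 7 rose with MCAO, against 10.6% of all tested genes, and 1 fell in hypidone against MCAO, against 8.28%. Sparc, a collagen-binding protein of vessels and glia, stood at 200, 346 and 183 CPM in control 4, 5 and 6, at 523, 887 and 661 CPM in MCAO 4, 5 and 6, and at 240, 336 and 243 CPM in hypidone 2, 7 and 8. MCAO lay above both other groups. Its log2 fold change was 1.51 ± 0.29 with MCAO (adjusted p = 0.0106), a call no single library ended, and -1.34 ± 0.29 against MCAO (adjusted p = 0.0180). The call against MCAO was lost without MCAO 6 (adjusted p = 0.0567), hypidone 2 (adjusted p = 0.0777) or hypidone 8 (adjusted p = 0.0810). Nid2, which links collagen IV to laminin, rose by 2.21 ± 0.50 (adjusted p = 0.0185), Thbs1 by 4.92 ± 1.35 (adjusted p = 0.0340) and Vwf by 2.44 ± 0.61 (adjusted p = 0.0257). Without control 4 the adjusted p of these 3 was 0.0672, 0.0998 and 0.0864, without control 6 it was 0.0665, 0.107 and 0.0761, and the calls were lost. Vwf also lost its call without control 5 or MCAO 6 (adjusted p = 0.0558 in both). Thbs1 lost its call without control 5 (adjusted p = 0.0772), MCAO 6 (adjusted p = 0.0603) or hypidone 8 (adjusted p = 0.0566) as well. Without MCAO 5 Nid2 stood at 1.53 (adjusted p = 0.0235), Vwf at 1.52 (adjusted p = 0.0409) and Thbs1 at 2.86 (adjusted p = 0.0747).

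Markers of cell types known to make collagen, and of macrophages, were summed in the same way, and the counts of markers that rose stand beside 10.6% of all tested genes that rose with MCAO. Over 10 fibroblast and meningeal cell markers, of which Dcn and Lum are also in the matrix list, the summed level was 34.7 to 66.0 FPKM in control, 53.1, 293 and 79.5 in MCAO 4, 5 and 6, and 36.7, 122 and 95.7 in hypidone 2, 7 and 8, and 1 of the 10, Igf2, rose with MCAO. Over 10 mural cell markers it was 56.6 to 87.0 FPKM in control, 68.1, 190 and 79.3 in MCAO, and 77.8, 96.3 and 94.2 in the hypidone group, and 1 of the 10, Pdgfrb, rose. Over 10 endothelial cell markers it was 60.8 to 108 FPKM in control, 80.5, 300 and 150 in MCAO, and 91.2, 106 and 84.5 in the hypidone group, and 3 of the 10 rose: Pecam1, Cdh5 and Cldn5. Over 8 macrophage markers it was 1.77 to 2.25 FPKM in control, 3.54, 102 and 8.91 in MCAO, and 2.81, 9.01 and 4.76 in the hypidone group, and 4 of the 8 rose. No fibroblast, mural or endothelial marker was at 0 in any library, and of the macrophage markers Ccr2 was. MCAO 5 was thus the highest library for all 4 lists, and hypidone 7 the highest of its group for the same 4. The same held for 7 microglia markers, at 177, 624 and 312 FPKM in MCAO 4, 5 and 6 and 198, 205 and 171 in hypidone 2, 7 and 8. It did not hold for 7 astrocyte, 8 neuron or 6 oligodendrocyte markers. In MCAO 4 the fibroblast, mural and endothelial sums lay within the control range, as did the mural sum in MCAO 6. Their part in the collagen results was not tested. Red cell markers rose in hypidone against MCAO in 5 of 5 cases, against 8.23% of all tested genes, and their part in the results was not tested.

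**Figure D4:**
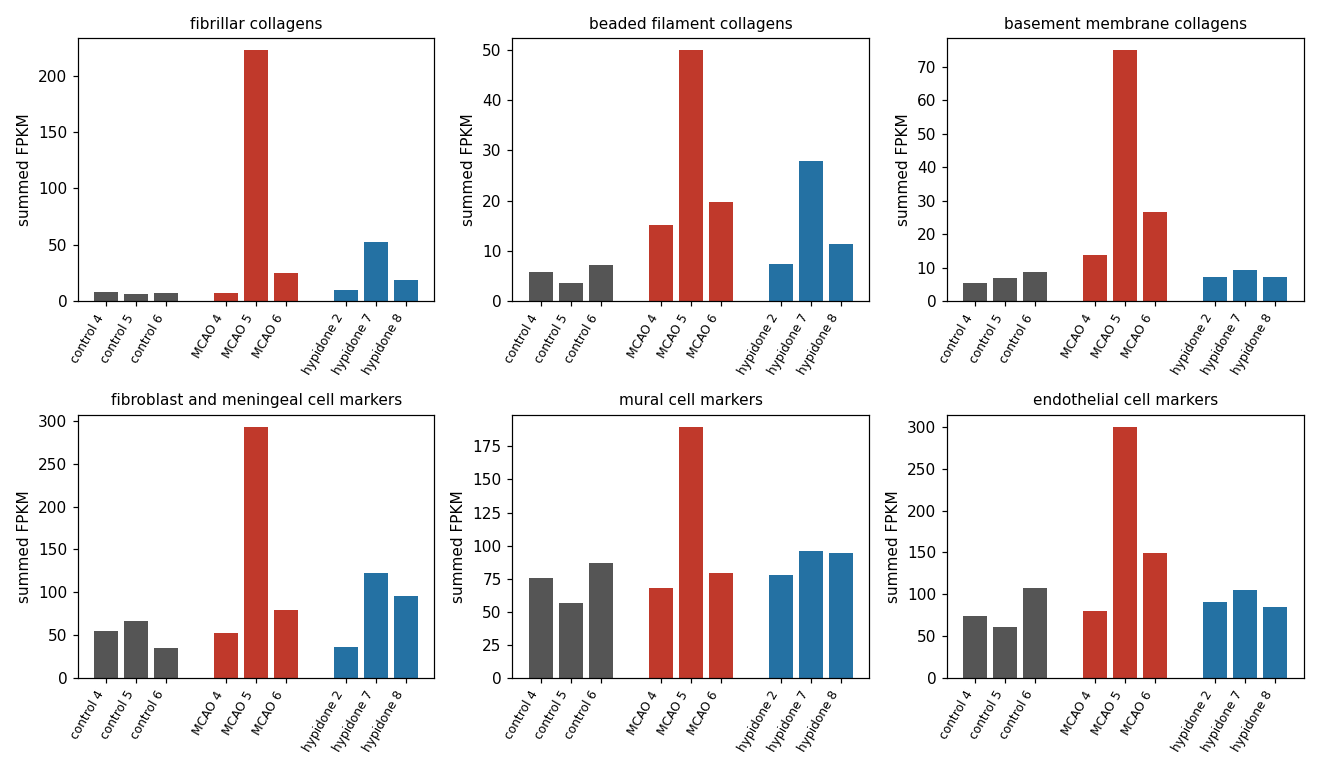
Summed FPKM per library for the fibrillar, beaded filament and basement membrane collagens (top) and for the fibroblast and meningeal, mural and endothelial marker lists (bottom), bars coloured by group. MCAO 5 is the tallest bar in all 6 panels. Hypidone 7 stands out of its group for fibrillar chains (52.2 beside 9.84 and 18.6) more than for basement membrane chains (9.31 beside 7.25 and 7.20). For fibroblast and meningeal markers hypidone 7 (122) lies nearer to hypidone 8 (95.7) than to hypidone 2 (36.7).

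Members that lie close together in the genome were compared by position. All 44 were found in GENCODE M21, and 9 pairs lay within 200000 bp of each other. Among them Col3a1 and Col5a2 lie tail to tail, 24615 bp apart, and had log2 fold changes with MCAO of 4.83 and 3.50. Col6a1 and Col6a2 lie on the same strand, 85162 bp apart, with 2.45 and 2.07. In the other collagen VI cluster, Col6a4, Col6a5 and Col6a6, the values were -0.69 for Col6a4 (adjusted p = 0.309) and -2.77 for Col6a6 (adjusted p = 0.0900). Col6a6 had 1 count in each MCAO library. Of the genes given here only Col6a1 passed the test with MCAO. In the 250 bases upstream of the start, RefSeq promoters (GRCm38.p6) were found for 35 of the 44 members, 38 promoters in all. Searched on both strands, the GC box GGGCGG was in 22 of the 38, against 32.7% of all 32851 promoters, CCAAT in 13, against 33.9%, TATAAA in 5, against 12.4%, and the AP-1 motif TGANTCA in 1, that of Col6a1, against 6.75%. The median GC content was 59.0% for the collagen windows and 52.4% for all. A match is a description of these letters and not a bound site. On the same strand, exons of Col3a1, Col7a1 and Col20a1 overlap those of Gm47302, Mir711 and BX649560.1, and on the opposite strand those of Col4a2 overlap Gm15419, so their counts may include reads of these genes.

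The authors' deposited table of their own comparisons listed 15 of the 44 members as higher with MCAO, against 6.51% of its genes, and 1 as lower, Col25a1, against 3.42%. In the authors' deposited table the genes listed higher that did not pass or were not tested here were Col1a1, Col1a2, Col3a1, Col4a5, Col5a2, Col6a2 and Col10a1, with q-values of 0.0298, 0.0172, 0.0218, 0.0240, 0.0337, 0.00134 and 0.00680. Col20a1 passed here and was not listed there, its fold of 1.87 having a q-value of 0.00861 in the authors' deposited table. A q-value under 0.05 thus did not suffice for a listing there, so the counts listed there and called here follow unlike rules. For hypidone against MCAO the authors' deposited table listed 6 members as lower, against 5.83% of its genes, adding Col5a1 (q-value 0.0132) to those found here, and 2 as higher, Col6a6 and Col26a1 (q-value 0.0221), against 3.84%. Col25a1, which did not pass here against MCAO, was not listed there either, but its fold of 1.63 had a q-value of 2.84e-05 in the authors' deposited table.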

How the data were processed

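Brain RNA of 9 mouse libraries was isolated with TRIzol and prepared with a VAHTS Universal library kit, according to the labels' protocols. Deposited by the authors were raw counts by gene symbol, FPKM for every library, and a table of comparisons holding a fold change (a ratio) with its q-value. In the submitters' processing notes, mm10 and DESeq2 appear with neither role nor version. For the aligner, the counter and the strand setting, nothing is given in the sources used here. All value columns matched a sample by title, with 0 left unmapped.

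The collagen genes, classes, lists and naming rule were chosen with earlier results of these data known. Counts were filtered with filterByExpr, scaled with TMM and fitted over all 9 libraries with edgeR 4.0.16 (R 4.3.3), leaving 6 residual degrees of freedom. Tests were two-sided quasi-likelihood F tests, adjusted by Benjamini-Hochberg over all 14756 genes tested, and a call is an adjusted p under 0.05. SE is the log2 fold change over the root of F. The scripts were tested on simulated data with 200 changed genes. The rule for named genes took every member called in a comparison, Col1a1, Col1a2, Col3a1, Col4a1 and Col4a2, the 5 members highest in control, and up to 4 called genes per pathway list with the lowest p. Col4a5, Col5a2 and Col6a2, and members or pathway genes outside that rule, were named after their values were seen. Alternatives were DESeq2 size factors, library totals, no filter or a CPM of at least 1 in 3 samples, DESeq2 1.42.0, limma 3.58.1 (voom with quality weights, and log2 FPKM plus a pseudocount of 1), a fit restricted to the groups compared, a replicate block, and each library left out. Leaving out MCAO 5 and hypidone 7 together was added after seeing the data. Replicate libraries all differed by more than sampling noise, with a chi-square per degree of freedom of at least 14.9.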

Additional observations from a re-analysis of the deposited data

How the results depend on the processing

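For MCAO against control 3015 genes and 10 collagen genes were called. The counts of genes were 4482 with DESeq2, 7428 with voom, 682 with only the groups compared, 0 with the replicate block and 2431 without MCAO 5 and hypidone 7. Those of collagen genes were, in the same order, 18, 15, 1, 0 and 5. Leaving out 1 library gave 1093 to 4275 genes and 1 (without control 4) to 18 (without MCAO 4) collagen genes. For hypidone against MCAO 2437 genes and 6 collagen genes were called. These were 4044 genes with DESeq2, 7631 genes and 15 collagen genes with voom, and 1400 genes and 3 collagen genes without MCAO 5 and hypidone 7. Leaving out 1 library gave 548 to 3875 genes and 0 (without hypidone 7) to 10 (without MCAO 4) collagen genes. For hypidone against control 0 genes were called, 1 with DESeq2, and 0 leaving out any 1 library. Control and MCAO share title numbers, but no pairing is given in the labels, so the block does not rest on a known pairing. Deviations from the group means correlated between same-numbered libraries with r of 0.111, 0.127 and -0.031. Between libraries of unlike number r ran from -0.161 to 0.166.

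Signs turned for genes not called in hypidone against MCAO. With voom the log2 fold changes were 0.93 for Col1a1, 0.27 for Col1a2, 0.14 for Col3a1 and 0.51 for Col6a2. Leaving out 1 library gave -2.44 to 1.60 for Col1a1, -2.39 to 0.78 for Col1a2, -3.66 to 0.91 for Col3a1, -1.98 to 0.028 for Col4a5, -1.17 to 0.47 for Col6a2 and -2.50 to 0.60 for Thbs1, with the upper end without MCAO 5. Without MCAO 5 and hypidone 7 Col1a1 stood at 0.42 and Col4a5 at 0.00299. Of 604 values recomputed over 32 named genes for MCAO against control, 409 kept their direction and side of the threshold, 179 fell short of it, 16 newly passed it and 0 turned sign. Of 573 values for hypidone against MCAO, 464 kept both, 62 fell short, 34 newly passed and 13 turned sign. The causes were not tested. Depth limits Col6a6, which had 1 count in each MCAO library.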
